A study of Mus musculus with 6 samples.

Results

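ATP synthase makes ATP in the mitochondrial inner membrane from the proton gradient that the respiratory chain builds. The 6 genes described here encode its catalytic head and its rotor ring, out of 45320 gene identifiers in the expression tables. Atp5a1, Atp5b and Atp5c1 encode the alpha, beta and gamma subunits of the F1 part. Atp5g1, Atp5g2 and Atp5g3 encode subunit c, whose copies form the c-ring. They were chosen by name, and with the level of Atp5g1 in each library already known, since it varied with skeletal muscle transcripts. Those levels are therefore a description and carry no test. All 6 genes had 1 identifier each in the tables, were above 0 in every library and passed the filter on low values, a mean of at least 1 FPKM. Their identifiers are ENSMUSG00000025428 (Atp5a1), ENSMUSG00000025393 (Atp5b), ENSMUSG00000025781 (Atp5c1), ENSMUSG00000006057 (Atp5g1), ENSMUSG00000062683 (Atp5g2) and ENSMUSG00000018770 (Atp5g3), and gene positions are from GENCODE M21 on GRCm38.

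The tissue was whole brown adipose tissue of C57BL/6 mice, sequenced as total RNA. All mice started a high-sugar, high-fat diet at 4 weeks of age and had eaten it for 4 weeks when they were divided into groups. In the treated group (samples 17, 33 and 35) the diet then contained RO5508887, a small molecule given in the labels as an experimental inhibitor of BACE1, the beta-secretase protease, and in the untreated group (samples 13, 14 and 15) the same diet went on without it. The dose of RO5508887 and the length of treatment are not given in the sources used here, nor is it said whether samples came from separate mice, so the p-values cover the spread among these libraries only, and part of it may be technical. Samples 33 and 35 held the same value for all 45320 identifiers, so they differed by less than the sampling noise and count as 1 sample here, treated 33/35. This leaves 2 treated and 3 untreated libraries. Values are FPKM, fragments per length of transcript and sequencing depth. Levels of different genes can thus be compared only as far as the lengths used were right, and these are not given.

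In the enzyme, protons pass through the membrane part at the c-ring and turn it, and the gamma subunit carries the rotation into the ring of alpha and beta subunits, where ATP is made at sites on beta. The 3 c-ring genes encode the same mature peptide with different mitochondrial targeting sequences. Brown adipocytes are known for a low ATP synthase content relative to their respiratory chain. Their uncoupling protein UCP1 lets protons return without making ATP, which releases heat. In brown fat the amount of the enzyme has been tied to the level of Atp5g1, and heart and skeletal muscle are known to hold much more of it.

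The coding sequences of the c-ring paralogs are shown because they tell which reads can be assigned to one gene. Each line gives the last 234 coding bases before the stop codon, from the GENCODE M21 transcripts on GRCm38, with capitals at the 63 positions where the 3 genes are not all alike. Coordinates span the introns in between.
Atp5g1, chr11:96073107-96073644 minus strand: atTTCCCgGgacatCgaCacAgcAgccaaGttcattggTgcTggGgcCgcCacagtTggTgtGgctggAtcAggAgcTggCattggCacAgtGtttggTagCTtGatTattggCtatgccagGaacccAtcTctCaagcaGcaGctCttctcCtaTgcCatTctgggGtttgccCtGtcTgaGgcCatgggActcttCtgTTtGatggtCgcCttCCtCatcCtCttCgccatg
Atp5g2, chr15:102663017-102665175 minus strand: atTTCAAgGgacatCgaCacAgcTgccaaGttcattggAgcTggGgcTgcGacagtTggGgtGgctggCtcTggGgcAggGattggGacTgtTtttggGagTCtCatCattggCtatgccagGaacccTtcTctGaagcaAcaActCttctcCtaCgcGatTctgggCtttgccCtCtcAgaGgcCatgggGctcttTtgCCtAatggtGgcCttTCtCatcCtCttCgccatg
Atp5g3, chr2:73908596-73909305 minus strand: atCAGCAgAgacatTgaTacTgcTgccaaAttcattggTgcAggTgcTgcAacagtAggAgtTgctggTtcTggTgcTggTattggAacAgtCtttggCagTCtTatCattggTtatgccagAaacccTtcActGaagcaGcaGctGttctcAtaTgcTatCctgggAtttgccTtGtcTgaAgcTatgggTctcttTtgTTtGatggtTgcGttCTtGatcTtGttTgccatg
These 78 codons translate into the same amino acids in all 3 genes. They follow 58 codons in Atp5g1, 68 in Atp5g2 and 63 in Atp5g3 that do not align in that way. At the level of bases, Atp5g1 and Atp5g2 were 84.6% identical over the stretch, Atp5g1 and Atp5g3 78.6%, and Atp5g2 and Atp5g3 77.4%. The longest identical run between any of these pairs was 20 bases, and no run of 50 bases was shared by 2 of the 3 genes anywhere in their transcripts.

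Skeletal muscle transcripts set the libraries apart before any comparison of groups. The 32 muscle markers summed to 3.52% and 1.55% of the FPKM outside mitochondrially encoded genes in treated 17 and treated 33/35. In untreated 13, 14 and 15 they summed to 0.0376%, 9.01% and 0.0363%. Each of the 31 markers that passed the filter on low values was highest in untreated 14, then in treated 17, then in treated 33/35. The exception, Myh4, was listed at 0 in those 3 libraries, while untreated 13 and 15 had 1.96 and 1.91 FPKM of it. The brown fat label was checked with Ucp1, which measured 1119 and 1321 FPKM in treated 17 and treated 33/35, and 1837, 227 and 1912 FPKM in untreated 13, 14 and 15. The 12 brown adipocyte markers were all above 0 in every library and summed to 0.518% and 0.596% in the treated libraries, against 0.706%, 0.133% and 0.769% in untreated 13, 14 and 15. The log2 fold change of Bace1, which encodes the drug's target, was 0.10 (SE 0.20), and a drug against the protein need not change its transcript. Over the 5 libraries the other marker lists summed to 0.0175% to 0.0287% (macrophage), 0.0261% to 0.0320% (endothelial), 0.0432% to 0.135% (fibroblast), 0.00322% to 0.0110% (Schwann cell) and 0.124% to 0.354% (red cell). Read totals were unknown. Low values gave depths relative to untreated 13 of 1.01 in treated 17, 0.959 in treated 33/35, 0.811 in untreated 14 and 0.880 in untreated 15.

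The F1 subunits were abundant in every library, and gamma was nearly level where alpha and beta were not. Atp5b (beta, the catalytic subunit; chromosome 10, 128083273 to 128090391, plus strand) measured 1886 and 2165 FPKM in treated 17 and treated 33/35, and 2091, 1262 and 2358 FPKM in untreated 13, 14 and 15. Atp5a1 (alpha, which alternates with beta in the head; chromosome 18, 77773729 to 77782869, plus strand) measured 1025 and 1092 FPKM in the treated pair, and 1131, 758 and 1220 FPKM in untreated 13, 14 and 15. Both genes were lowest in untreated 14 and highest in untreated 15, and the treated values lay between those of untreated libraries. Atp5c1 (gamma, the central stalk; chromosome 2, 10056016 to 10080510, minus strand) measured 525 and 523 FPKM in the treated pair, and 531, 535 and 549.6 FPKM in untreated 13, 14 and 15. Its highest value was only 1.05 times its lowest, against 1.61 for Atp5a1 and 1.87 for Atp5b. On the log2 scale the spread of Atp5c1 over the 5 libraries stood at percentile 0.155 of the 13527 tested genes, counted from the most level. Atp5a1 stood at percentile 47.4 and Atp5b at percentile 62.5.

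The c-ring paralogs differed from each other far more than the F1 subunits did. Atp5g1 (chromosome 11, 96068852 to 96075670, minus strand) measured 191 and 89.8 FPKM in treated 17 and treated 33/35, and 12.5, 529.5 and 9.08 FPKM in untreated 13, 14 and 15. Its highest value was 58.3 times its lowest, and its spread stood at percentile 98.1 of all tested genes. Both treated libraries lay far above untreated 13 and 15 and well below untreated 14, so the groups overlap. Atp5g3 (chromosome 2, 73908447 to 73911326, minus strand) measured 417 and 347 FPKM in the treated pair, and 302, 674 and 316 FPKM in untreated 13, 14 and 15. It had the same order of libraries as Atp5g1 down to treated 33/35, over a range of 2.23-fold. Atp5g2 (chromosome 15, 102662864 to 102672352, minus strand) measured 233 and 223 FPKM in the treated pair, and 232, 257 and 246 FPKM in untreated 13, 14 and 15. Its range was 1.15-fold, and its spread stood at percentile 4.98. The order untreated 14, treated 17, treated 33/35, then untreated 13 and 15 was thus held by 2 of the 6 genes, Atp5g1 and Atp5g3, and by 12.9% of all tested genes.

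**Figure D1:**
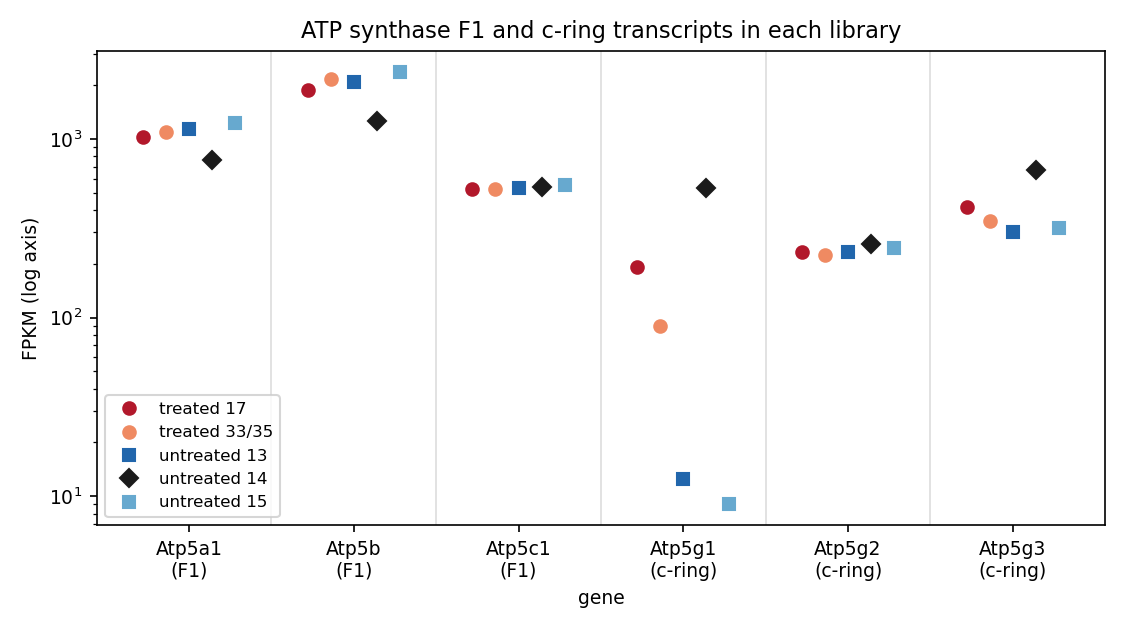
FPKM of the 6 genes on a log axis, with 1 point per library, treated libraries at the left of each gene (circles) and untreated libraries at the right (squares, diamond for untreated 14). Atp5g1 runs from 9.08 to 529.5 FPKM, whereas Atp5c1 stays between 523 and 549.6 FPKM.

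The genes also kept a nearly fixed order of levels, apart from untreated 14. In treated 17, treated 33/35, untreated 13 and untreated 15 the order from high to low was Atp5b, Atp5a1, Atp5c1, Atp5g3, Atp5g2 and Atp5g1. In untreated 14 it was Atp5b, Atp5a1, Atp5g3, Atp5c1, Atp5g1 and Atp5g2. Over the 5 libraries the ranges of Atp5b and Atp5a1 did not overlap, nor did those of Atp5a1 and Atp5c1, or of Atp5g3 and Atp5g2. The range of Atp5g3 took in that of Atp5c1, and the range of Atp5g1 overlapped those of Atp5c1, Atp5g2 and Atp5g3. Within every library, however, Atp5c1 and Atp5g3 both stood above Atp5g1. Only Atp5c1 with Atp5g3, and Atp5g2 with Atp5g1, changed places, in untreated 14. GENCODE M21 lists protein-coding transcripts of 596 to 4715 bases for Atp5g1 but of 714 to 723 bases for Atp5g3, and the length the authors divided by is not given in the sources used here, which bears on the level of Atp5g1 against the others but not on its differences between libraries, if that length was the same in each.

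The make-up of the c-ring pool differed between libraries with the level of Atp5g1. Atp5g1 took 22.7% and 13.6% of the summed c-ring FPKM in treated 17 and treated 33/35, and 2.29%, 36.3% and 1.59% in untreated 13, 14 and 15. Atp5g3 took the largest share of the 3 in every library, with 49.6% and 52.6% in the treated libraries and 55.3%, 46.1% and 55.3% in untreated 13, 14 and 15. Atp5g2 took 27.7% and 33.8% in the treated libraries, and 42.4%, 17.6% and 43.1% in untreated 13, 14 and 15. The share of Atp5g2 was smallest where that of Atp5g1 was largest, while its own level hardly moved on the FPKM scale. The mean share of Atp5g1 was 18.2% ± 6.45 in treated libraries (SD, n = 2) and 13.4% ± 19.8 in untreated libraries (SD, n = 3), a difference of 4.79 percentage points that lies within the untreated spread. Without untreated 14 the difference was 16.2 percentage points.

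Set against F1, the c-ring transcripts stood highest in untreated 14. There were 24.5 and 17.5 c-ring FPKM for every 100 F1 FPKM in treated 17 and treated 33/35, and 14.5, 57.1 and 13.8 in untreated 13, 14 and 15. The sum of the 3 c-ring genes was 841 and 660.0 FPKM in the treated pair, and 546, 1460.3 and 572 FPKM in untreated 13, 14 and 15. The sum of the 3 F1 genes was lowest where the c-ring sum was highest, with 3436 and 3780.1 FPKM in the treated pair and 3753, 2555 and 4128 FPKM in untreated 13, 14 and 15. The log2 ratio of c-ring to F1 averaged -2.27 ± 0.34 in treated libraries (SD, n = 2) and -2.15 ± 1.16 in untreated libraries (SD, n = 3), a difference of -0.13 that was not tested because the level of Atp5g1 enters it. Without untreated 14 that difference was 0.54.

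Leaving Atp5g1 out narrowed the range of the c-ring to F1 ratio but kept the order of libraries. Atp5g2 and Atp5g3 together gave 18.9 and 15.1 FPKM for every 100 F1 FPKM in treated 17 and treated 33/35, and 14.2, 36.4 and 13.6 in untreated 13, 14 and 15. The log2 ratio differed by -0.18 between treated and untreated libraries (exact permutation test, two-sided, p = 1). Within F1 there were 54.3 and 50.4 alpha FPKM for every 100 of beta in the treated libraries, and 54.1, 60.1 and 51.8 in untreated 13, 14 and 15 (exact permutation test, two-sided, p = 0.6). Gamma stood at 27.9 and 24.1 for every 100 of beta in the treated libraries, and at 25.4, 42.4 and 23.3 in untreated 13, 14 and 15 (exact permutation test, two-sided, p = 1). After adjustment over these 3 tests each p was 1. With 2 libraries against 3 the smallest p this test can give is 0.2.

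**Figure D2:**
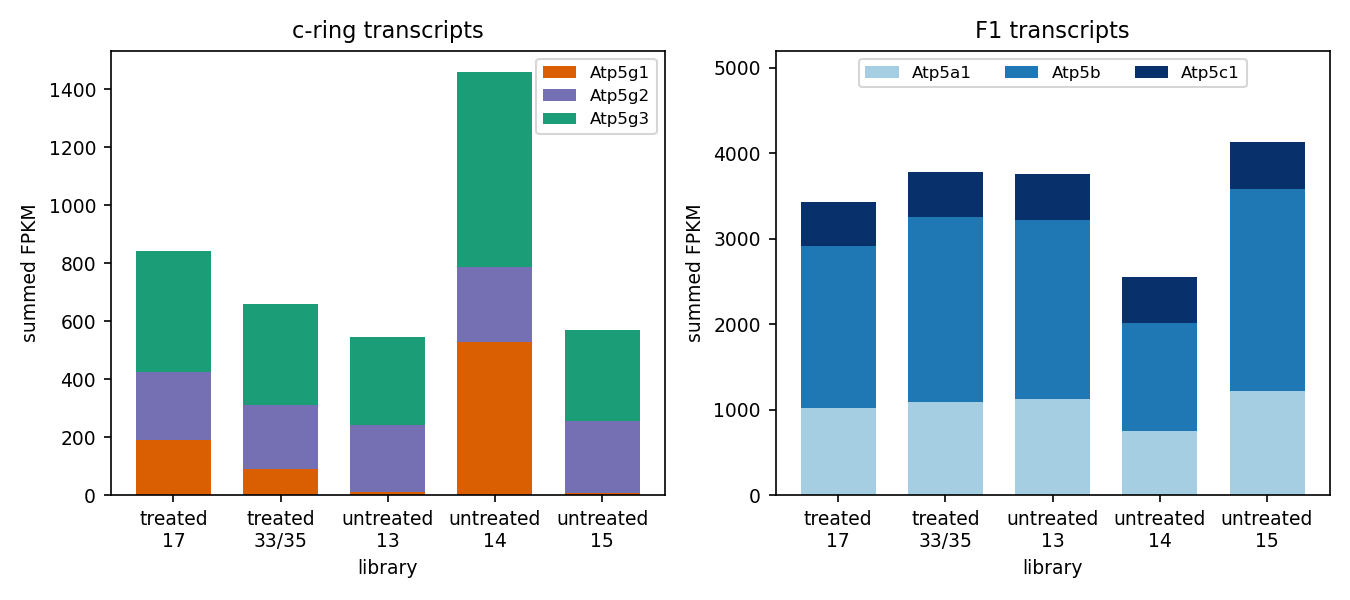
Summed FPKM of the c-ring genes (left) and the F1 genes (right) in each library, with bar segments for single genes and treated libraries at the left. The c-ring bar reaches 1460.3 FPKM in untreated 14, where the F1 bar is lowest at 2555 FPKM.

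Among the libraries richest in muscle transcripts, Atp5g1 stood in a nearly fixed proportion to them. For each percent of muscle marker content, Atp5g1 measured 54.3 and 58.1 FPKM in treated 17 and treated 33/35 and 58.8 FPKM in untreated 14. In untreated 13 and 15, where the markers summed to only 0.0376% and 0.0363%, it measured 333 and 250.2 FPKM per percent. For every 100 FPKM of Ckm, the muscle creatine kinase, there were 15.2 and 16.9 FPKM of Atp5g1 in the treated pair, and 555, 19.4 and 620.0 FPKM in untreated 13, 14 and 15. Ckm itself was at 2.25 and 1.46 FPKM in untreated 13 and 15, so the low Atp5g1 values there, 12.5 and 9.08 FPKM, were several times those of Ckm. Not every marker was that low. Myl1, at 119.5 and 116.7 FPKM, and Tpm2, at 19.2 and 17.3 FPKM, stood above Atp5g1 in untreated 13 and 15. Eno3 did so in untreated 15 only, at 9.31 FPKM, and the remaining markers stood below Atp5g1 in both. The part of muscle content in the level of Atp5g1 was not tested. In these whole-tissue samples, fewer cells of a type and less RNA per cell cannot be told apart.

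**Figure D3:**
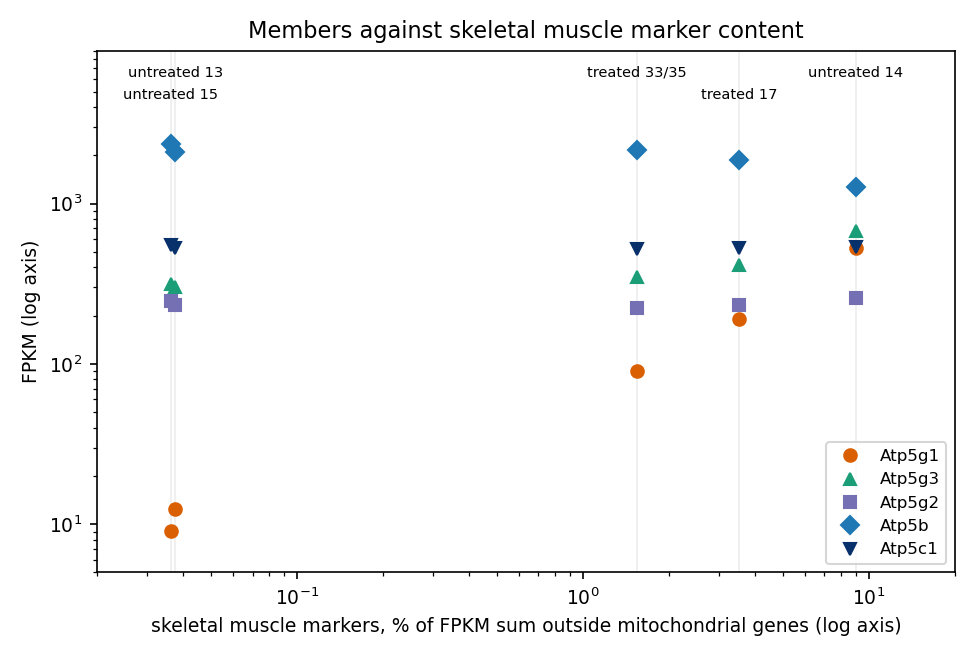
FPKM of 5 of the genes against the summed share of 32 skeletal muscle markers in each library, both on log axes. Atp5g1 and Atp5g3 are highest at the right, at 529.5 and 674 FPKM in untreated 14. On this FPKM scale Atp5g2 and Atp5c1 stay nearly level, and Atp5b is lowest there.

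Copies of the c-ring genes elsewhere in the genome bear on how exactly their levels are known. Gm10039, a processed pseudogene on chromosome 11, shares 335 words of 50 bases with Atp5g1 transcripts, of 4881 in all. The 4881 words pool transcripts of 596 to 4715 bases, so the matched part of a short transcript may be much larger, which was not tested. Gm10039 measured 13.9 and 7.62 FPKM in treated 17 and treated 33/35, and 1.16, 46.2 and 1.38 FPKM in untreated 13, 14 and 15. That was 7.24% and 8.49% of Atp5g1 in the treated libraries and 9.30%, 8.73% and 15.2% in untreated 13, 14 and 15. Gm10175 shares 596 such words with Atp5g2 and stood at 21.8% and 21.5% of it in the treated libraries and at 21.2%, 21.2% and 21.4% in untreated 13, 14 and 15. Gm10231 shares 392 words and stood at 6.77% and 6.41% of Atp5g2 in the treated libraries and at 6.25%, 6.34% and 6.33% in untreated 13, 14 and 15. In all, 163 other genes shared such words with Atp5g1, against 0 to 3 for each other member. Among the 163, Txn2 shared 35 words and measured 144 to 241 FPKM over the libraries. How the authors assigned reads that match more than 1 gene is not given in the sources used here. The levels of Atp5g1, its low values in untreated 13 and 15 included, and of Atp5g2 are therefore uncertain. Atp5g3 and Atp5a1 shared no word of 50 bases with any other gene. Atp5a1 overlaps Haus1 on the opposite strand by 158 bases, and Haus1 measured 11.8 and 12.2 FPKM in the treated pair and 9.88, 10.8 and 9.27 FPKM in untreated 13, 14 and 15. Whether reads were counted by strand is not given in the sources used here.

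The comparison of treated with untreated libraries asks how the ATP synthase genes stood in mice given the inhibitor. Of the members other than Atp5g1, which carries no test, 0 passed the test across all genes (limma, two-sided, Benjamini-Hochberg adjusted p under 0.05). Of these members, 0 had an unadjusted p under 0.05. Over all 13527 tested genes 6 passed, which is 0.0444%, with 4 higher (0.0296%) and 2 lower (0.0148%) in treated libraries, and 125 had an unadjusted p under 0.05. The log2 fold change, on the log2(FPKM + 0.5) scale, was 0.14 (SE 0.34) for Atp5b, 0.06 (SE 0.28) for Atp5a1 and -0.04 (SE 0.16) for Atp5c1, each with a limma adjusted p of 1. It was -0.10 (SE 0.16) for Atp5g2 and -0.07 (SE 0.42) for Atp5g3, also with a limma adjusted p of 1. For Atp5g1, given without a test, it was 1.703 (SE 1.95), although its mean FPKM was lower in treated libraries, at 140.5 ± 71.8 FPKM (SD, n = 2), than the 184 ± 299 FPKM of untreated libraries (SD, n = 3). The median log2 fold change of the members was 0.0099, that of all tested genes 0.061. Untreated 14, at 529.5 FPKM, makes up most of the untreated mean of Atp5g1.

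Atp5c1 was the only member whose groups did not overlap, and its difference was small. Both treated values, 525 and 523 FPKM, lay below the lowest untreated value of 531 FPKM, as did both treated values in 3.18% of all tested genes. None of the 6 genes had both treated values above every untreated one, against 5.5% of all tested genes. The mean of Atp5c1 was 524 ± 1.95 FPKM in treated libraries (SD, n = 2) and 539 ± 9.59 FPKM in untreated libraries (SD, n = 3). The groups overlapped under each of the 4 rescalings by a factor per library: the median ratio, the sum outside mitochondrial genes, that sum without muscle markers, and the adipocyte identity markers. Centring on the adipocyte markers, whose sum was lowest in untreated 14, made its range 2.25-fold, with its highest value in untreated 14, so its level course holds on the FPKM scale and not on that one. The same centring made the range of Atp5g2 2.48-fold, and it put Atp5g2, Atp5a1 and Atp5b highest in untreated 14.

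Without untreated 14, the fit called 158 of 13368 genes (1.18%), with 1.11% higher and 0.0673% lower in treated libraries, and all 31 tested muscle markers were among the higher ones. Atp5g1 was the only member called, higher with a log2 fold change of 3.56 (SE 0.40). Nothing is read from that call, since the level of Atp5g1 chose it and treated libraries with muscle transcripts then face untreated libraries with few, so that the drug cannot be told apart from muscle content. In the same fit the log2 fold changes were 0.30 for Atp5g3 (SE 0.12, limma adjusted p = 0.431), -0.14 for Atp5b (SE 0.12, limma adjusted p = 0.709) and -0.15 for Atp5a1 (SE 0.10, limma adjusted p = 0.594). These 3 values have the opposite sign to those over all 5 libraries. Atp5g2 at -0.068 (SE 0.089, limma adjusted p = 0.814) and Atp5c1 at -0.045 (SE 0.083, limma adjusted p = 0.876) kept their sign. Both treated values lay above untreated 13 and 15 for Atp5g1 and Atp5g3, as in 24.5% of genes tested in that fit, and below them for Atp5a1 and Atp5c1, as in 21.1%.

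The rest of the enzyme showed which pattern was common in it. The list of 23 other genes held subunits and the inhibitor of ATP synthase, and 9 genes listed as assembly or related. These 9, Dmac2 and Oxa1l among them, need not act on ATP synthase alone. All 23 genes were tested and 0 passed in either direction, and 0 had an unadjusted p under 0.05 (limma). The median log2 fold change of the 23 genes was 0.0035, with values from -0.17 to 0.34. Of these 23 genes 19 were lowest in untreated 14, as were Atp5a1 and Atp5b, and as were 43.6% of all tested genes. The genes highest in untreated 14 were 3 of the 23, Atp5j, Atpif1 and Atpaf1, together with the 3 c-ring genes, against 33.5% of all tested genes. The summed adipocyte markers were lowest there too, and 11 of the 12 were lowest in untreated 14, the exception being Slc2a4, which was lowest in treated 33/35. The 12 adipocyte identity markers summed to 1.61% and 1.80% in the treated libraries, and to 1.88%, 0.954% and 1.83% in untreated 13, 14 and 15.

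In the central stalk, Atp5d (delta) measured 449.6 and 530.0 FPKM in treated 17 and treated 33/35, and 502, 317 and 537 FPKM in untreated 13, 14 and 15, much like Atp5b. On the log2 scale treated minus untreated came to 0.15 (SE 0.30, adjusted p = 1 by limma). On the FPKM scale Atp5e (epsilon) was nearly level like gamma, to which it binds. It measured 839.7 and 843 FPKM in the treated pair and 846, 884 and 917 FPKM in untreated 13, 14 and 15. Centred on the adipocyte markers, Atp5e had a range of 2.34-fold. It was the only one of the 23 genes whose groups did not overlap, with both treated values below every untreated one as in 3.18% of all tested genes, a share near that of 1 in 23, and they overlapped under the same 4 rescalings. In the peripheral stalk, which holds the head still against the rotor, Atp5j (coupling factor 6) stood apart from the others, with 272 and 219.5 FPKM in the treated pair and 211, 432 and 222 FPKM in untreated 13, 14 and 15. Atp5f1, Atp5h and Atp5o, the other stalk genes on the list, were lowest in untreated 14, at 328, 522 and 488 FPKM.

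The mitochondrially encoded subunits had the highest FPKM among the genes of the enzyme. FPKM are divided by length, and mt-Atp8 is short, spanning bases 7766 to 7969 of the mitochondrial genome, against 7927 to 8607 for mt-Atp6. How far length enters the higher FPKM of mt-Atp8 was not tested. mt-Atp6, subunit a, which forms the proton path beside the c-ring, measured 7128 and 8207 FPKM in treated 17 and treated 33/35, and 8283, 5377 and 9058 FPKM in untreated 13, 14 and 15 (log2 fold change 0.050, SE 0.32, limma adjusted p = 1). mt-Atp8 measured 25972 and 30291 FPKM in the treated pair, and 34907, 17396 and 37143 FPKM in untreated 13, 14 and 15 (log2 fold change -0.011, SE 0.43, limma adjusted p = 1). Both were lowest in untreated 14. Their genes overlap by 43 bases on the same strand, so reads of one transcript cannot be assigned to a single gene there.

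Among the inhibitor and the assembly or related genes, levels ran from 8.53 FPKM (Fam173b, untreated 14) to 215 FPKM (Fmc1, untreated 15). The largest contrast was in Atpaf2. Atpif1, the inhibitor protein that binds F1, measured 23.5 and 25.9 FPKM in the treated pair, and 20.7, 32.5 and 17.2 FPKM in untreated 13, 14 and 15 (log2 fold change 0.12, SE 0.31, limma adjusted p = 1). Atpaf1, the chaperone of beta, measured 28.2 and 19.96 FPKM in the treated pair, and 20.4, 35.8 and 25.0 FPKM in untreated 13, 14 and 15. Atpaf2, the chaperone of alpha, named after its values were seen, measured 95.2 and 105 FPKM in the treated pair, and 133, 27.7 and 133 FPKM in untreated 13, 14 and 15. Its range of 4.81-fold was the widest of the 23 genes. The smallest unadjusted p (limma) among the 23 genes was 0.421, for Dmac2, from the genes listed as assembly or related. Dmac2 measured 35.8 and 35.6 FPKM in the treated pair, and 39.8, 35.3 and 43.9 FPKM in untreated 13, 14 and 15. Next by p was Atp5mpl, a small membrane subunit, with 464 and 469 FPKM in the treated pair and 568, 459 and 548 FPKM in untreated 13, 14 and 15.

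**Figure D4:**
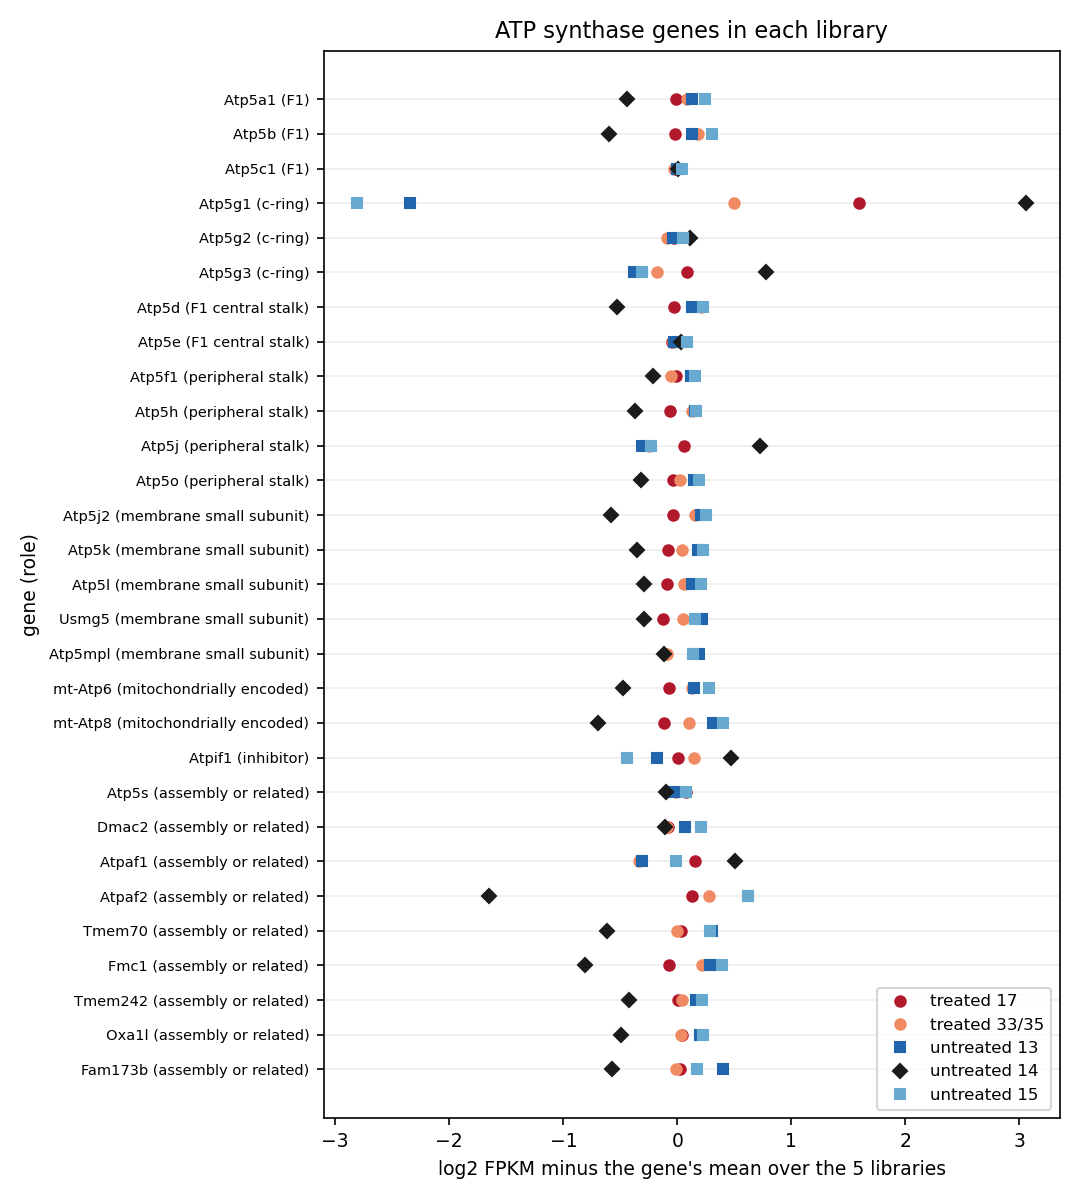
Log2 FPKM of the 6 genes and the 23 other ATP synthase genes in each library, minus the mean of the gene over the 5 libraries, with circles for treated and squares or diamonds for untreated libraries. Untreated 14 is the lowest point of most genes, and the highest of Atp5g1, Atp5g2, Atp5g3, Atp5j, Atpif1 and Atpaf1.

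Other inner membrane proteins with paralogs known from muscle and other tissues were set beside the c-ring. The log2 ratio of Atp5g1 to Atp5g3 was -1.12 and -1.95 in treated 17 and treated 33/35, and -4.59, -0.35 and -5.12 in untreated 13, 14 and 15, a range of 4.77. Cox6a2, the heart and muscle form of a cytochrome oxidase subunit, measured 274 and 119 FPKM in the treated pair, and 0.506, 814 and 0.478 FPKM in untreated 13, 14 and 15. Its log2 ratio to Cox6a1 ranged over 13.2. Slc25a4, the ADP/ATP carrier of heart and muscle, measured 538 and 356 FPKM in the treated pair, and 235, 1101 and 241 FPKM in untreated 13, 14 and 15, and its log2 ratio to Slc25a5 ranged over 4.23. These pairs shared the order of libraries of the Atp5g1 ratio down to treated 33/35. The log2 ratio of Cox8b to Cox8a ranged over 1.28 and that of Cox7a1 to Cox7a2 over 0.14, and neither had that order. In untreated 13 and 15, Atp5g1 stood at 12.5 and 9.08 FPKM where Cox6a2 was near its lowest values.

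**Figure D5:**
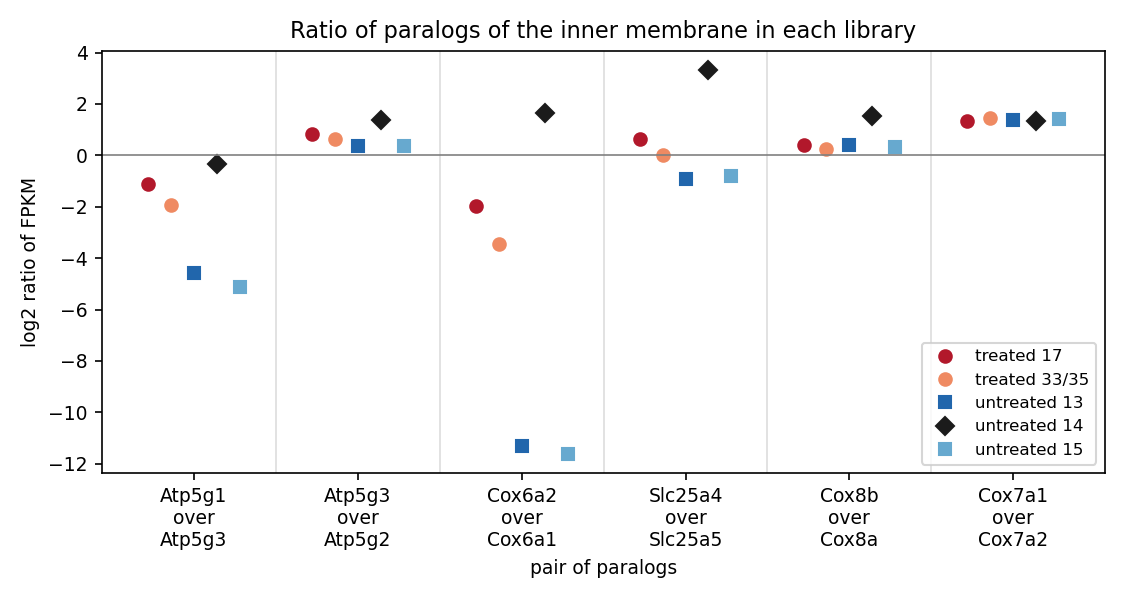
Log2 ratio of FPKM between paralogs of the inner membrane, with 1 point per library and treated libraries at the left of each pair. The ratio of Atp5g1 to Atp5g3 spans 4.77, less than Cox6a2 to Cox6a1 at 13.2 and more than Cox7a1 to Cox7a2 at 0.14.

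The genes whose course over the 5 libraries was most like that of each member were found among 11382 other protein-coding genes, by the root mean square difference of centred log2 values. For Atp5g1 they were Shisa2 (0.115), Myadml2 (0.138), Nnt (0.139), Art5 (0.143, listed at 0 in untreated 15) and Serinc2 (0.150). Nnt, the proton-translocating transhydrogenase of the same membrane, measured 38.7 and 19.3 FPKM in treated 17 and treated 33/35, and 2.56, 136 and 2.04 FPKM in untreated 13, 14 and 15. For Atp5b they were Cdip1 (0.0119), Suclg2 (0.0221), Sdhb (0.0246), Cox7b (0.0283) and Ptar1 (0.0286), of which Suclg2, Sdhb and Cox7b belong to the citric acid cycle or the respiratory chain. For Atp5a1 they were Ctnnd1 (0.0124), Ndufs6 (0.0146), Ndufa6 (0.0158), Zfp180 (0.0182) and Srsf10 (0.0187), with Ndufs6 and Ndufa6 from complex I.

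Atp5g3 was closest to Kif1c (0.0162), Cul5 (0.0201), Htatsf1 (0.0255), Rapgef1 (0.0337) and Thop1 (0.0399). Atp5g2 was closest to Mgea5 (0.0224), Cdk11b (0.0271), Cdc37 (0.0290), Zw10 (0.0294) and Taf3 (0.0312). Atp5c1 was closest to Sept8 (0.0165), Rab3gap1 (0.0188), Tor1aip2 (0.0202), Ppie (0.0215) and Rrm1 (0.0233). Among the members themselves, Atp5g2 was nearest to Atp5c1 (0.0575) and Atp5a1 to Atp5b (0.0860). Atp5g1 was 1.87 from Atp5g3, its nearest member. A small difference for a level gene says only that both hardly moved.

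The promoters of the c-ring genes are shown because the 3 paralogs differed so much in course. Each line gives the 250 bases before the start in the RefSeq table on GRCm38.p6, with capitals at matches to the motifs searched on both strands. These were AAGGTCA for ERR receptors, the palindromic 10-base consensus of NRF1, CCGGAAG for ETS factors, CAGCTG for MyoD-type factors, CCAAT and TATAAA.
Atp5g1 promoter, chr11:96075632-96075881 minus strand: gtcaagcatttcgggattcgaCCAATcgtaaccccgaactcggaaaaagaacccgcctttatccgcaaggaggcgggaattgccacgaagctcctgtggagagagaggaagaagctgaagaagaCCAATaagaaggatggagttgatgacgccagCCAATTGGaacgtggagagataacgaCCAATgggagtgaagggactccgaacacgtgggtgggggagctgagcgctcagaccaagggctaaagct
Atp5g2 promoter, chr15:102671048-102671297 minus strand: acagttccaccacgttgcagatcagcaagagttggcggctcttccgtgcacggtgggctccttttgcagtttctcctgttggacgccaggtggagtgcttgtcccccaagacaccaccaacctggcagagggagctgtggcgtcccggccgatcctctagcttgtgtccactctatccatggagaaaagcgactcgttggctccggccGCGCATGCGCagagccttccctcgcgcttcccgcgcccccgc
Atp5g3 promoter, chr2:73911327-73911576 minus strand: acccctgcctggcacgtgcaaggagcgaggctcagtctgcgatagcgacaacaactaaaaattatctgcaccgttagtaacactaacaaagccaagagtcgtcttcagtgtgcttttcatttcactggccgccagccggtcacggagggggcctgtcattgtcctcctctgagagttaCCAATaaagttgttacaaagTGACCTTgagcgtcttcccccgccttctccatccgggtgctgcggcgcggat
The Atp5g1 window held 5 matches to CCAAT, 4 on the strand of the gene and 1 on the other, a pair of which overlap, and no match to the other motifs. Atp5g2 held 1 palindromic match to the NRF1 motif, from base -42 to base -33. The RefSeq starts need not be those of the GENCODE M21 gene positions. The Atp5g2 window lies inside the gene's GENCODE M21 bounds, and the Atp5g1 window partly so. Matches in windows set from other starts were not searched. Atp5g3 held 1 match to AAGGTCA on the opposite strand, from base -52 to base -46, and 1 to CCAAT. Of 32851 promoter windows of the same length, 33.9% held CCAAT, 3.74% the NRF1 motif, 4.08% AAGGTCA, 6.91% CCGGAAG, 13.0% CAGCTG and 12.4% TATAAA. A match is a run of letters and not a binding site, and the absence of one says only that these letters are not in the window.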

How the data were processed

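The members and lists were chosen with earlier results of these data known. The authors deposited 1 table per sample of FPKM values for 45320 Ensembl identifiers, per the file headers. The submitters' processing notes name CASAVA 1.7 and GRCm38. Aligner, quantifier and annotation release are not given in the sources used here. Total RNA was extracted with Trizol, per the labels' protocols. GENCODE M21 on GRCm38 named 44481 identifiers.

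FPKM are not counts, so log2(FPKM + 0.5) was compared, for genes averaging 1 FPKM or more over the libraries, with limma 3.58.1 in R 4.3.3, with empirical Bayes moderation and a variance trend. The test was checked on simulated data whose spread was reduced below that of these libraries, which is easier than the real case. The number of reads was unknown, so no counting interval or floor was given, and a 0 may be an estimate that failed. Genes named were the 6 members, the 4 of smallest p and 3 fixed genes among other ATP synthase genes, 4 pairs of paralogs, and the 5 genes most like each member. Atp5e, Atp5f1, Atp5h, Atp5j, Atp5o, Atpaf2, Bace1, Ckm, Ucp1, Slc2a4 and Myh4 were named outside that rule, after their values were seen. Ratios were compared with exact permutation tests in scipy 1.17.1, those of alpha and gamma to beta being added after the data were seen. Alternatives covered pseudocount, filter, scaling, variance trend, identical tables and each library left out. Python 3.11.15, numpy 2.4.6, pandas 2.3.3 and matplotlib 3.10.9 were used.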

Additional observations from a re-analysis of the deposited data

How the results depend on the processing

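No paired analysis was possible because the groups share no replicate number. The count of 6 genes past the threshold became 2 with a pseudocount of 0.1, 1 with a mean of at least 5 FPKM, and 0 without a filter (522 of 25274 at an unadjusted p under 0.05) or with centring on the adipocyte markers (39). It ranged from 0 to 158 with a library left out, and was 158 without untreated 14 and 0 without any other (85 to 118 at an unadjusted p under 0.05). The count of called members ranged from 0 to 1 with a library left out, with 1 without untreated 14, and was 0 under every other alternative run. That 1 was Atp5g1, whose level chose it, so nothing is read from the call. The c-ring to F1 difference of -0.13 ranged from -0.48 to 0.54 with a library left out, and the difference in Atp5g1 share from -1.11 to 16.2 percentage points. Centring on the adipocyte markers, which moved the median of all genes to -0.093 from 0.061, reversed Atp5a1 to -0.095 and Atp5b to -0.018. With a library left out, Atp5a1 ranged from -0.15 to 0.19, Atp5b from -0.14 to 0.31 and Atp5g3 from -0.28 to 0.30, and Atp5g3 was 0.057 without treated 33/35. The causes were not tested. Atp5c1 and Atp5g2 were lower, and Atp5g1 higher on the log2 scale, in treated libraries under every alternative run. Adding the copies to the c-ring genes was chosen after the data were seen. It gave a c-ring to F1 difference of -0.135, against -0.127, and a difference in Atp5g1 share of 4.34 percentage points, against 4.79. No alternative moved either measure by more than the untreated spread, which untreated 14 makes wide, so that spread is no check on the copies. Read totals were unknown, so depth sets no stated limit here.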
